A study of Mus musculus with 3 samples.

Results

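The 10 genes described here are the *Bcl2* family members *Bcl2*, *Bcl2a1a*, *Bcl2a1b*, *Bcl2a1d*, *Bcl2l1*, *Mcl1*, *Bcl2l11*, *Bid*, *Bax* and *Bak1*. They were chosen by symbol from the 32285 genes counted, and all 10 were found, each in 1 row of the gene list. 6 are pro-survival and 4 are pro-death. Their RNA was measured in single bone marrow derived macrophages (BMDMs), cells grown from bone marrow of female C3H/HeN mice aged 6 to 8 weeks in medium with L929 cell supernatant. The paper describes pooled marrow for its cultures, and for the single-cell libraries it describes BMDMs of 3 mice treated independently. UI cells received PBS and were collected at 4 hours, LP1 cells received purified borrelial lipoproteins (*Bb*LP) at 1 µg/mL for 1 hour and LP4 cells the same dose for 4 hours. *Bb*LP are the lipid-anchored surface proteins of *Borrelia burgdorferi*, the agent of Lyme disease, and are sensed mainly through TLR2. Each condition is 1 library made from 3 wells whose cells were mixed before loading. The spread between cultures was therefore not measured, and no test between conditions was possible.

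The *Bcl2* family decides whether the outer membrane of the mitochondrion stays closed. BAX and BAK1 form the pores through which cytochrome c leaves to start caspase activation, BCL2, BCL-XL, MCL1 and the A1 proteins hold them in check, and BH3-only proteins such as BIM and BID release that check. In macrophages, A1 is known as a gene induced through NF-kB after Toll-like receptor signals, and MCL1 as a short-lived protein that is made continuously. The comparisons ask how the RNA of the pro-survival and the pro-death members stood in PBS-treated cells and 1 and 4 hours after the lipoproteins. UI was collected at 4 hours, so LP1 had no PBS control of its own time. LP1 over UI therefore also holds any difference between these collection times, which was not measured.

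Unique molecular identifiers (UMIs, tags that count RNA molecules once) were summed over the cells of a library and are given per 1000000 UMIs of those cells (CPM). 6071 UI, 5065 LP1 and 4670 LP4 cells were used, which carry 35688939, 52475723 and 61402275 UMIs with medians of 5133, 9343 and 11784 UMIs per cell. The macrophage genes fixed as markers were all 9 detected in every library, with a sum of 11179 to 12130 CPM led by *Lyz2*. Marker sums of the other cell types ranged from 451 to 707 CPM for neutrophils and from 223 to 236 CPM for dendritic cells, were at most 19.7 CPM for stromal cells and at most 2.89 CPM for B, T, mast and erythroid cells, and their part in the results was not tested outside the clusters described further on. Few barcode sequences were shared between libraries, 10 by UI and LP1, 7 by UI and LP4 and 4 by LP1 and LP4. Errors are exact 95% intervals that cover counting error only. A difference is called when it reaches 1.5-fold, which is 0.58 on the log2 scale.

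The 3 *Bcl2a1* genes, which encode the A1 proteins, were higher in LP1 than in UI and higher again in LP4, from 1.64-fold to 1.93-fold at 1 hour and from 3.03-fold to 6.32-fold at 4 hours. They lie on chromosome 9 (GRCm38), *Bcl2a1d* at 88723285 to 88731914 on the minus strand, *Bcl2a1a* at 88956900 to 88962419 and *Bcl2a1b* at 89199209 to 89207827 on the plus strand, and are near copies of each other. Their coding sequences have 516 bases each and differ at 12 positions among the 3 genes, with 97.9% identity between *Bcl2a1a* and *Bcl2a1b*, 98.6% between *Bcl2a1a* and *Bcl2a1d* and 98.8% between *Bcl2a1b* and *Bcl2a1d*. The first 90 coding bases are printed from the GENCODE vM21 transcripts because they hold 6 of those positions, in capitals, and show how little separates the genes.
Bcl2a1a: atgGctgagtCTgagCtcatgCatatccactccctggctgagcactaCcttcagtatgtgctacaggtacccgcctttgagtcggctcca
Bcl2a1b: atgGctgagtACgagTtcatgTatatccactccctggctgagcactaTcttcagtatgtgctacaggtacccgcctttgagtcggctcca
Bcl2a1d: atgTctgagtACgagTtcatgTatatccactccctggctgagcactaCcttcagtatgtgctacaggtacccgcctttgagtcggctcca

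A read that maps to more than 1 gene is dropped by Cell Ranger, so the split of UMIs among these copies is uncertain. Of all stretches of 90 bases, 53.0% in the *Bcl2a1a* transcript, 63.9% in *Bcl2a1b* and 38.4% in *Bcl2a1d* occur in no other *Bcl2a1* transcript. In the last 300 bases, where reads of this 3′ method gather, the shares are 60.2%, 49.8% and 10.4%. The read length is not given in the sources used here, and the mice are C3H/HeN whereas the reference is C57BL/6J, so each gene's level is less certain than its interval shows, and the sum of the 3 genes is given beside them. Reads shared between the copies are missing from this sum too, so it may be too low, as may the values built on it. A further copy, *Bcl2a1c*, which was not among the members, had 5, 28 and 144 UMIs in UI, LP1 and LP4, at most 2.35 CPM.

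*Bcl2a1b*, the copy with the most counted UMIs, was at 113 CPM in UI (109 to 116), 185 CPM in LP1 (181 to 189) and 341 CPM in LP4 (336 to 345). *Bcl2a1d* was at 43.3 CPM in UI (41.2 to 45.6), 76.7 CPM in LP1 (74.3 to 79.1) and 179 CPM in LP4 (176 to 183). *Bcl2a1a* was at 7.37 CPM in UI (6.51 to 8.32), 14.3 CPM in LP1 (13.3 to 15.3) and 46.6 CPM in LP4 (44.9 to 48.3). In each gene the levels were in the order UI, LP1, LP4 with no overlap of the intervals. The unique shares given above differ between the copies, so which copy had the most RNA cannot be read from these counts.

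At 1 hour the log2 ratios to UI were 0.72 for *Bcl2a1b* (0.66 to 0.77), 0.82 for *Bcl2a1d* (0.74 to 0.91) and 0.95 for *Bcl2a1a* (0.75 to 1.16). These were the only members past 1.5-fold in LP1, 3 of 10 higher and 0 of 10 lower, beside 4.2% called higher and 3.12% called lower of the 9232 genes that reached 5 CPM in one of the 2 libraries. At 4 hours the log2 ratios to UI were 1.60 for *Bcl2a1b* (1.55 to 1.65), 2.05 for *Bcl2a1d* (1.97 to 2.13) and 2.66 for *Bcl2a1a* (2.48 to 2.85), that is 3.03-fold, 4.14-fold and 6.32-fold. The sum of the 3 genes was 163, 276 and 566 CPM, a log2 ratio of 0.76 in LP1 (0.71 to 0.80) and 1.79 in LP4 (1.75 to 1.84).

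RefSeq promoters of GRCm38.p6, each 250 bases before to 50 after a start, were at hand for all 10 members, 13 promoters in all. The stretch of 100 bases shown here is the same in *Bcl2a1a* and *Bcl2a1b* and was chosen because it holds the Ets-type box GAGGAAGT, in capitals, which lies 104 bases before the start in *Bcl2a1a* and *Bcl2a1d* and 148 before it in *Bcl2a1b*. For *Bcl2l11*, the pro-death gene furthest below UI in LP4, the stretch shown holds the FOXO-type box GTAAACA, in capitals, 227 bases before the start.
Bcl2a1a (chr9:88956776-88956875, plus strand): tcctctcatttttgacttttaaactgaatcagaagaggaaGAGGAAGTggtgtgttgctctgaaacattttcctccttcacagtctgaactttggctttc
Bcl2a1d (chr9:88731895-88731994, minus strand): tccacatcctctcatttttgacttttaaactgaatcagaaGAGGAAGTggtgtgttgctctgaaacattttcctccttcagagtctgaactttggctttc
Bcl2l11 (chr2:128125788-128125887, plus strand): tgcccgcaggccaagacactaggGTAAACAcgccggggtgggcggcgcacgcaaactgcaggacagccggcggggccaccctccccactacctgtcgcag

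GAGGAAGT, searched on both strands, was in the promoters of 4 members, the 3 *Bcl2a1* genes and *Bak1*, and in 3.11% of all 32544 promoters, and it was picked after the sequences had been seen. The AP-1 box TGANTCA was in the 3 *Bcl2a1* promoters and no other member's, and in 7.79% of all promoters. The NF-kB motif was in 1 of the 3 *Bcl2l1* promoters and no other member's (8.49% of all), and GTAAACA was in 1 of the 2 *Bcl2l11* promoters and no other member's (3.66% of all). These are matches of letters, not binding sites. The *Bcl2a1* promoter stretches are the same or nearly so, so their matches do not count as separate finds. Whether any of these boxes bears on the RNA levels was not tested.

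The other pro-survival members did not stand 1.5-fold higher after *Bb*LP. *Mcl1*, on chromosome 3, was the most abundant member in every library, at 1224 CPM in UI (1212 to 1235), 1358 CPM in LP1 (1348 to 1368) and 1290 CPM in LP4 (1281 to 1299). Its log2 ratio to UI was 0.15 in LP1 and 0.08 in LP4 (0.06 to 0.09), and that of LP4 over LP1 was -0.07, which became 0.02 with TMM and 0.06 with median-of-ratios scaling. That scaling moved the median of all genes with at least 10 CPM from -0.08 to 0.13 for LP4 over UI.

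*Bcl2*, which names the family, was the member furthest below UI in LP4. It lies on chromosome 1 and was at 33.9 CPM in UI (32.0 to 35.9), 33.3 CPM in LP1 (31.7 to 34.9) and 4.22 CPM in LP4 (3.72 to 4.76), from 1211, 1746 and 259 UMIs. UI and LP1 overlapped, and LP4 was 8.04-fold below UI, a log2 ratio of -3.01 (-3.21 to -2.81). An antisense gene, *D630008O14Rik*, overlaps *Bcl2*. *Bcl2l1*, which encodes BCL-XL, was at 111 CPM in UI (107 to 114), 120 CPM in LP1 (117 to 123) and 60.5 CPM in LP4 (58.6 to 62.5). Its log2 ratio to UI was 0.11 in LP1 (0.05 to 0.17) and -0.87 in LP4 (-0.94 to -0.81).

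Among the pro-death members, *Bcl2l11* was called lower and *Bid* higher at 4 hours. *Bcl2l11*, which encodes the BH3-only protein BIM, was at 243 CPM in UI (238 to 248), 248 CPM in LP1 (244 to 253) and 94.9 CPM in LP4 (92.5 to 97.4). The level was alike in UI and LP1, whose intervals overlap, and LP4 was 2.56-fold lower than UI, a log2 ratio of -1.36 (-1.40 to -1.31). *Bid*, whose protein is cleaved by caspase-8 to link death receptors to the mitochondrion, was at 11.4 CPM in UI (10.3 to 12.6), 14.3 CPM in LP1 (13.3 to 15.3) and 29.1 CPM in LP4 (27.8 to 30.5). Its log2 ratio to UI was 0.32 in LP1 (0.15 to 0.50) and 1.35 in LP4 (1.20 to 1.51). The end of *Bid* overlaps *Bcl2l13* on the other strand, and *Bcl2l13* was at 16.1, 18.7 and 16.6 CPM.

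The pore-forming members differed by less. *Bax* was at 250 CPM in UI (244 to 255), 276 CPM in LP1 (271 to 280) and 187 CPM in LP4 (184 to 190), with log2 ratios to UI of 0.14 in LP1 (0.10 to 0.18) and -0.42 in LP4 (-0.46 to -0.38). *Bak1* was at 77.0 CPM in UI (74.2 to 80.0), 69.4 CPM in LP1 (67.2 to 71.7) and 68.4 CPM in LP4 (66.3 to 70.5). Its log2 ratio of LP4 over UI was -0.17 (-0.24 to -0.10) and 0.03 with median-of-ratios scaling. Both were short of 1.5-fold in all 3 comparisons. The value nearest to it was *Bax* in LP4 over LP1, at -0.56 (-0.59 to -0.52), which passed it with means over cells of shares (-0.60).

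**Figure D1:**
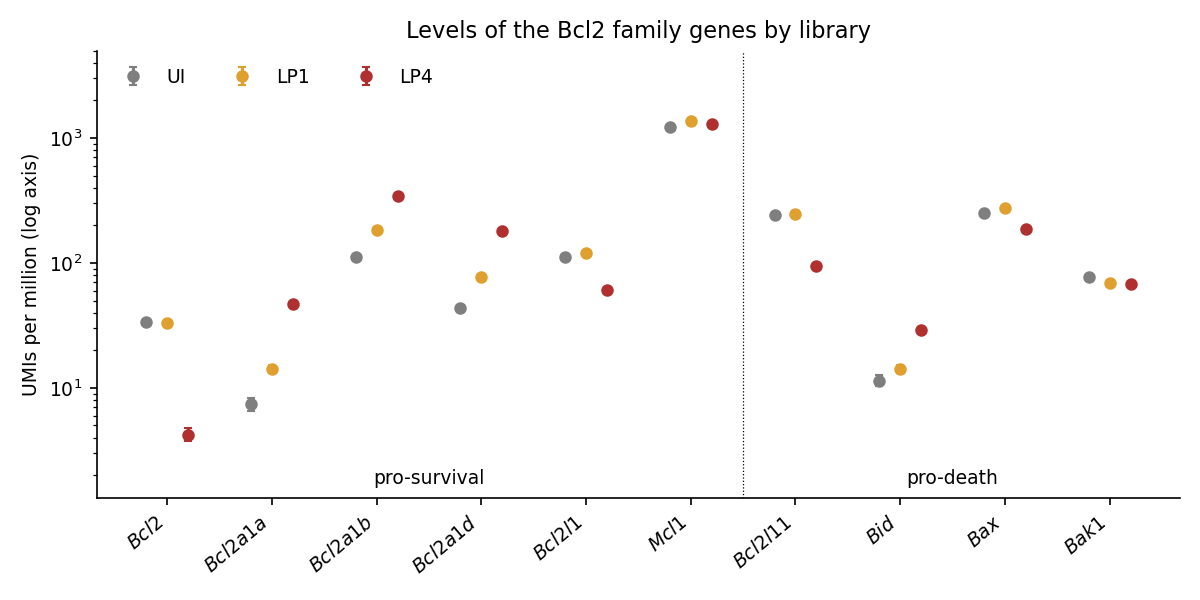
CPM of each of the 10 genes (log axis) in the UI, LP1 and LP4 libraries, 1 point per library with exact 95% counting intervals, which are mostly smaller than the points. The 3 *Bcl2a1* genes and *Bid* stand highest in LP4, *Bcl2*, *Bcl2l1*, *Bcl2l11* and *Bax* stand lowest there, and *Mcl1*, at 1224 to 1358 CPM, is the highest in all 3 libraries.

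In the comparison of LP4 with UI, 4 members were called higher (the *Bcl2a1* genes and *Bid*) and 3 lower (*Bcl2*, *Bcl2l1* and *Bcl2l11*). Of 9427 genes, 19.8% were called higher and 24.4% lower, so that calls in either direction were common among all genes at 4 hours. The same 4 and 3 members were called between LP4 and LP1, where 16.2% of 9360 genes were higher and 19.5% lower. The median log2 ratio of LP4 over UI was 0.84 over the 6 pro-survival members and -0.29 over the 4 pro-death members, beside -0.09 over all genes. For LP1 over UI the medians were 0.43, 0.09 and -0.02. Of the 6 pro-survival members, 3 are the *Bcl2a1* copies, whose split of UMIs is uncertain. The other 3, *Bcl2*, *Bcl2l1* and *Mcl1*, were at -3.01, -0.87 and 0.08 for LP4 over UI. For LP1 over UI they were at -0.03, 0.11 and 0.15. The comparisons with UI share the UI library, so their values are set side by side and not correlated.

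**Figure D2:**
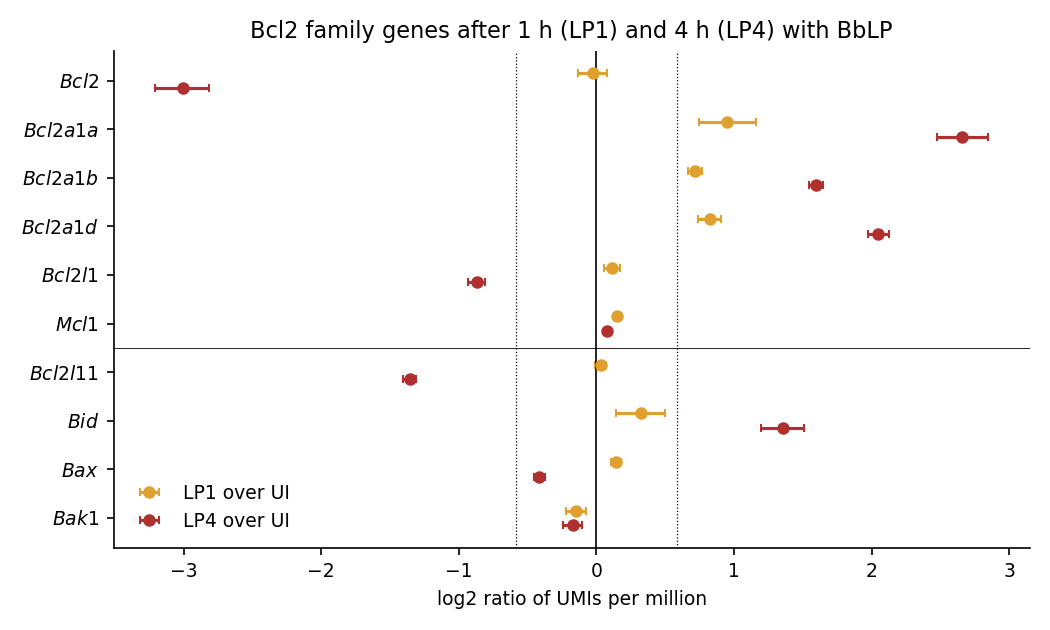
Log2 ratios of CPM for LP1 over UI and LP4 over UI, 1 point per gene and comparison with exact 95% counting intervals, pro-survival genes above the thin line and pro-death genes below it. The dotted lines mark 1.5-fold. At 1 hour only the *Bcl2a1* genes are past them, at 4 hours 7 of the 10 genes are.

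The sum of the pro-survival members was 1532 CPM in UI (1519 to 1544), 1787 CPM in LP1 (1775 to 1798) and 1922 CPM in LP4 (1911 to 1933). The sum of the pro-death members was 581 CPM in UI (573 to 589), 608 CPM in LP1 (601 to 614) and 379 CPM in LP4 (375 to 384). The ratio of the sums was thus 2.64 in UI, 2.94 in LP1 and 5.06 in LP4, a log2 change from UI of 0.16 in LP1 (0.13 to 0.19) and 0.94 in LP4 (0.91 to 0.97). This ratio is formed within a library and so does not depend on how libraries are scaled. Reads shared between the *Bcl2a1* copies are missing from its pro-survival part. *Mcl1* carried 79.9%, 76.0% and 67.2% of the pro-survival UMIs in UI, LP1 and LP4. Without *Mcl1* the log2 change in LP4 was 1.65, and the pro-survival UMIs went from 0.530 to 1.66 for each pro-death UMI. Without the *Bcl2a1* genes it was 0.60, and the log2 ratio of the pro-death sum was -0.61 (-0.64 to -0.59). The make-up of the pro-survival RNA also shifted, since the *Bcl2a1* genes were 53.0% of the pro-survival UMIs other than *Mcl1* in UI, 64.3% in LP1 and 89.7% in LP4.

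CPM is a share of a cell's RNA, and the cells of LP4 held more UMIs, with a mean of 13148 against 5879 in UI. On the scale of mean UMIs per cell, *Bcl2l11* was at 1.43 in UI and 1.25 in LP4, *Bax* at 1.47 and 2.46, *Mcl1* at 7.19 and 17.0, *Bcl2a1b* at 0.662 and 4.48, and *Bcl2* at 0.199 and 0.0555. *Bcl2l1*, called lower in CPM, was at 0.650 UMIs per cell in UI and 0.795 in LP4. *Bcl2l1*, *Bax* and *Bak1* were thus lower in CPM and higher per cell in LP4, while *Bcl2* and *Bcl2l11* were lower on both scales. Deeper sequencing and more RNA per cell cannot be told apart in these libraries.

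Each cell was next thinned to 2000 UMIs, leaving out 122 UI, 13 LP1 and 45 LP4 cells with fewer, so that shares of cells with a UMI can be compared. Cells with a UMI of *Bcl2a1b* were 18.3% in UI (17.3 to 19.3), 28.2% in LP1 (26.9 to 29.4) and 40.2% in LP4 (38.8 to 41.6), against 39.4%, 65.3% and 79.2% without thinning. For *Bcl2l11* the shares were 34.3% in UI (33.1 to 35.5), 35.3% in LP1 (33.9 to 36.6) and 15.8% in LP4 (14.8 to 16.9), against 57.2%, 73.1% and 54.2% unthinned. The thinned shares follow the order of the CPM in both genes.

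The thinned share of *Bcl2* was 6.14%, 5.82% and 0.80% in UI, LP1 and LP4, that of *Bcl2l1* 17.6%, 18.7% and 10.6%, and that of *Bid* 2.17%, 2.26% and 5.54%. *Mcl1* had a UMI in 88.9% of UI, 91.5% of LP1 and 89.1% of LP4 cells. *Bax* was seen in 37.9%, 40.0% and 29.0%, although its unthinned share was 68.8% in UI and 80.9% in LP4. A cell type that should lack these genes was not present in number, so the share that free RNA alone gives was not measured.

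The transcripts of the members were not spread evenly over the cells. In LP4 the 10% of cells with the most *Bcl2a1a* UMIs held 66.4% of them, and 1 cell had 31. For *Bcl2a1b* the share was 38.3% with up to 67 UMIs in a cell, and for *Mcl1* it was 22.4%. Among the others in LP4 it was 39.3% for *Bcl2a1d*, 100% for *Bcl2*, 52.3% for *Bid* and 50.35% for *Bcl2l1*. *Bcl2l11* had 44.4%, *Bak1* 37.6% and *Bax* 31.2%, so *Bcl2a1b* and *Bcl2a1d* lay among the other members. These shares are lower for abundant genes by counting alone and were not adjusted for level or for the depth of each cell.

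Taking *Bcl2a1* and *Bcl2l11* together in the thinned cells, 25.5% of UI, 38.4% of LP1 and 55.4% of LP4 cells had a UMI of any of the 3 *Bcl2a1* genes. Cells with *Bcl2a1* and without *Bcl2l11* were 16.7% in UI (15.8 to 17.7), 24.9% in LP1 (23.7 to 26.1) and 46.8% in LP4 (45.4 to 48.3). Cells with *Bcl2l11* and without *Bcl2a1* were 25.5% in UI (24.4 to 26.6), 21.7% in LP1 (20.5 to 22.8) and 7.26% in LP4 (6.53 to 8.05). Cells with both were 8.77% in UI, 13.6% in LP1 and 8.58% in LP4. UI cells thus more often showed *Bcl2l11* alone than *Bcl2a1* alone, and LP4 cells the reverse. This follows the separate shares of the genes, and whether the genes were linked within single cells was not tested.

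**Figure D3:**
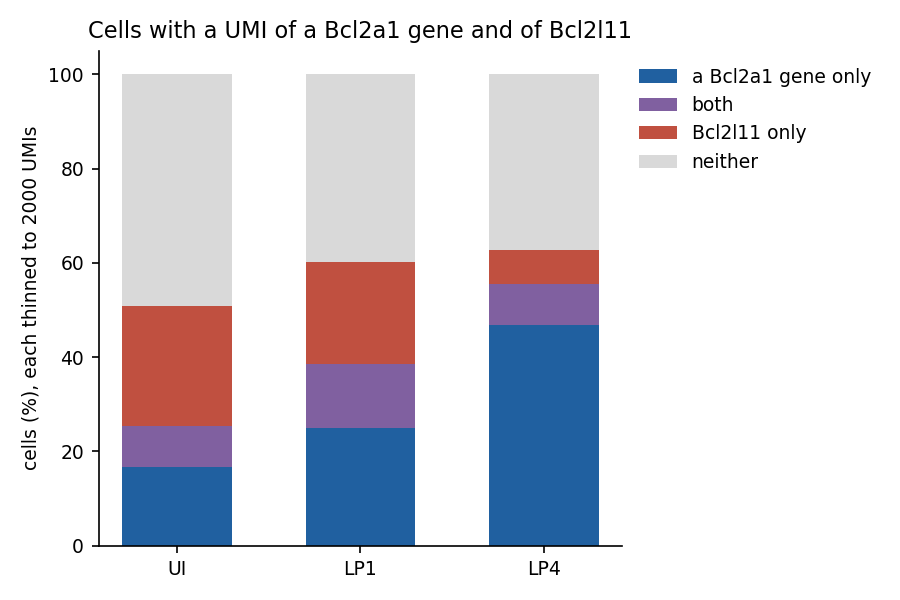
Share of cells (%) in each library with a UMI of at least 1 of the *Bcl2a1* genes only, of both *Bcl2a1* and *Bcl2l11*, of *Bcl2l11* only, or of neither, after thinning each cell to 2000 UMIs. The *Bcl2a1*-only share is 16.7% in UI and 46.8% in LP4, and the *Bcl2l11*-only share is 25.5% and 7.26%.

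Cells were grouped into 11 clusters on genes other than the members and the pathway list, and 7 clusters, A to G, reached 50 cells in each of the libraries. A to E were macrophage-like, F was cycling-like (led by histone genes, *Cenpf* and *Nusap1*) and G was dendritic cell-like (led by *H2-Eb1*, *H2-Aa* and *Cd74*). The only dendritic cell markers among the 10 leading genes of G were *H2-Eb1*, *H2-Aa*, *H2-Ab1* and *Cd74*. Of the 9 macrophage markers, 6 were each present in 50% or more of the cells of G, as in B and D, and 8 in F. Whether F and G are cells other than macrophages was not tested. The macrophage-like clusters, with the small cluster J described further on, held 91.0% of UI, 89.9% of LP1 and 91.9% of LP4 cells. Cluster C had 1565, 1153 and 86 cells in UI, LP1 and LP4 and cluster E had 117, 82 and 1161, so that different clusters held many of the macrophage-like cells in LP4. Values within each cluster are therefore given. With coarser clusters (resolution 0.3), *Egr3*, a leading gene of C, and *F13a1*, a leading gene of E, led the same cluster. It had 1782, 1276 and 1206 cells in UI, LP1 and LP4. Whether C and E hold the same kind of cell in each library was not tested, so their ratios may compare different cells.

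The *Bcl2a1* genes were past 1.5-fold higher in LP4 than in UI in 7 of 7 clusters, with log2 ratios from 1.16 (cluster E) to 2.27 (cluster G) for *Bcl2a1b*, from 1.46 (E) to 2.47 (D) for *Bcl2a1d* and from 1.25 (E) to 4.04 (G) for *Bcl2a1a*. Each of these *Bcl2a1a* values rests on 6 UMIs in UI, with intervals of 0.11 to 2.71 in E and 2.89 to 5.51 in G. *Bcl2l11* was lower in 7 of 7, from -1.62 (C) to -0.60 (G), and *Bid* higher in 7 of 7, from 0.72 (E) to 2.74 (G). *Bid* in cluster G rests on 2 UMIs in UI and 25 in LP4 (0.73 to 5.86), and in cluster E on 8 and 294 with an interval that includes 0 (-0.28 to 1.94). *Bax* was lower in 7 of 7, from -0.51 (B) to -0.21 (C), with no cluster past 1.5-fold and an interval in cluster C that includes 0 (-0.47 to 0.045). *Bak1* was also lower in 7 of 7, from -0.72 (E, -1.17 to -0.24) to -0.04 (B). It was past 1.5-fold in cluster E only, and its intervals in B, C, F and G include 0. Over all cells the *Bak1* ratio became 0.03 with median-of-ratios scaling, and other scalings were not tried within clusters. The clusters come from the same libraries, so they are not replicates.

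*Bcl2* was lower in all 7 clusters. The log2 ratio was between -5.11 in cluster E (-6.35 to -3.93) and -1.32 in cluster G (-2.53 to -0.15). These values rest on 17 and 16 UMIs in UI and on 11 and 12 in LP4. In cluster C, where LP4 had 0 UMIs in 86 cells, the floor of 3 counts makes *Bcl2* at least 3.26-fold lower than the 11.8 CPM of UI. The exact interval of that log2 ratio, which also takes in the counting error of UI, reaches up to -1.37. *Bcl2l1* was past 1.5-fold lower in 6 of 7 clusters, down to -1.23 in cluster B. The exception was cluster C with 0.37 (-0.20 to 0.90), where *Bcl2l1* was already low in UI, at 31.8 CPM (27.6 to 36.5) against 74.3 to 145 CPM in the other 6 clusters. The values of C and E for *Bcl2* and *Bcl2l1* carry the limit given above, that they may compare different cells. The ratio of the pro-survival to the pro-death sum was higher in LP4 in 7 of 7 clusters, by 0.72 (F) to 1.16 (G) on the log2 scale. At 1 hour the *Bcl2a1* genes were past 1.5-fold in fewer clusters. For LP1 over UI each *Bcl2a1* gene was higher in 7 of 7 clusters but past 1.5-fold in 5, short of it in E and F. The lowest was *Bcl2a1a* in F, at 0.28 (-0.44 to 1.03). The ratio of the sums ranged from -0.11 (E) to 0.29 (G).

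**Figure D4:**
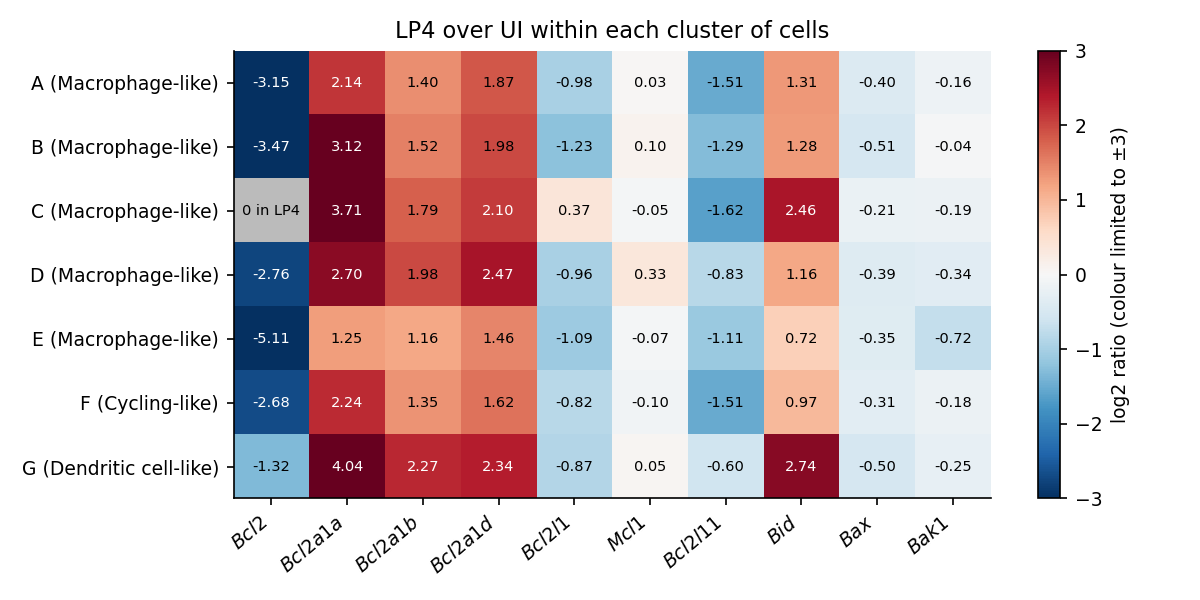
Log2 ratio of LP4 over UI for each gene (columns) within each of clusters A to G (rows), written in each cell, with red for higher and blue for lower in LP4. The *Bcl2a1* and *Bid* columns are above 0 and the *Bcl2l11*, *Bax* and *Bak1* columns below 0 in all 7 clusters, and the grey cell marks *Bcl2* in cluster C, with 0 UMIs in LP4.

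The clusters differed in level as well as in change. The dendritic cell-like cells had the highest *Bcl2a1* levels in LP4, with 737 CPM of *Bcl2a1b* (683 to 794), 438 CPM of *Bcl2a1d* (397 to 483) and 198 CPM of *Bcl2a1a* (171 to 229). The macrophage-like cells had 347 CPM, 181 CPM and 45.4 CPM of the same genes, and the cycling-like cells 207 CPM, 121 CPM and 33.1 CPM. *Bcl2l11* in UI ranged from 84.5 CPM in cluster D (77.2 to 92.4), led by *Mgll* and *Eef1a2*, to 355 CPM in cluster C (340 to 369), led by *Egr3*. Cluster C, highest in *Bcl2l11*, was lowest in *Bcl2l1* and in *Bcl2* (11.8 CPM, 9.33 to 14.8) among the 7 clusters of UI. Cluster D, lowest in *Bcl2l11*, had the most *Bcl2* (54.8 CPM, 49.0 to 61.2).

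A small macrophage-like cluster, J, had higher levels of 3 of the 4 pro-death members than the other macrophage-like cells. It had 23, 20 and 13 cells in UI, LP1 and LP4 and was led by *Ddit3*, which encodes the stress factor CHOP and was not among the genes used for clustering. Over the 3 libraries its 56 cells had 516 CPM of *Bcl2l11* (457 to 582), 468 CPM of *Bax* (412 to 531) and 71.0 CPM of *Bid* (37 UMIs), where the other macrophage-like cells had 180, 230 and 18.9 CPM. *Bak1*, the remaining pro-death member, was at 69.1 CPM (48.4 to 95.7) against 70.2 CPM. *Mcl1* over the 3 libraries was also higher in cluster J, at 1703 CPM (1593 to 1819) against 1325 CPM. It was at 1524 CPM in UI (1323 to 1747) against 1247 CPM and at 2085 CPM in LP4 (1891 to 2293) against 1323 CPM. In LP1 it was at 1412 CPM (1245 to 1595), an interval that includes the 1383 CPM of the other macrophage-like cells. *Bcl2a1b* over the 3 libraries was lower in cluster J, at 129 CPM (99.7 to 163) against 240 CPM. By library, *Bcl2l11* was at 362 CPM in UI (268 to 479), 405 CPM in LP1 (318 to 508) and 720 CPM in LP4 (608 to 846) in these cells. The LP4 value is 146 UMIs in 13 cells. The other macrophage-like cells had 239, 245 and 91.5 CPM. *Bid* in LP4 was at 123 CPM (79.7 to 182) in the cells of cluster J. *Ddit3* itself was at 922 CPM in the cells of cluster J and 17.0 CPM in the other macrophage-like cells. The members were not used to form the cluster, but the cells were grouped by their other genes. With so few cells per library, the values by library are a description only. Their intervals do not cover the spread between cells, and differences between libraries within the cluster were not tested.

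The 85 neutrophil-like cells, led by *S100a9* and *Ngp*, had 517 CPM of *Mcl1* (455 to 585) and 82.4 CPM of *Bcl2l11* (58.9 to 112), both below the macrophage-like cells, at 1327 CPM and 181 CPM. They numbered 32, 25 and 28 in the 3 libraries and were not compared between them.

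Barcodes above the limit of 5% mitochondrial UMIs, a sign often read as cell damage, were left out of all values above. They numbered 18 in UI, 43 in LP1 and 273 in LP4. In LP4 these 273 barcodes had less *Mcl1* than the cells kept, 1051 CPM (1017 to 1087), a log2 ratio of -0.30 (-0.34 to -0.25). They had more *Bcl2l1*, 79.7 CPM (70.4 to 89.9), and more *Bcl2a1a*, 62.8 CPM (54.6 to 71.9). *Bcl2a1d* was slightly lower in them, with a log2 ratio of -0.14 (-0.27 to -0.015). *Bcl2* was at 7.55 CPM in them (4.89 to 11.1) from 25 UMIs. *Bcl2l11*, *Bid*, *Bax*, *Bak1* and *Bcl2a1b* lay within -0.10 and 0.18 of the kept cells on the log2 scale, with intervals that include 0. These barcodes were set apart by their mitochondrial share, which lowers the CPM of all other genes. Over non-mitochondrial UMIs the log2 ratios were -0.26 for *Mcl1*, -0.10 for *Bcl2a1d*, 0.43 for *Bcl2l1* and 0.47 for *Bcl2a1a*, without intervals.

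Of 49 further genes of the pathway, 40 reached 5 CPM in at least 1 library of each comparison. 1 was called higher and 0 lower at 1 hour, 9 higher and 6 lower for LP4 over UI, and 5 higher and 7 lower for LP4 over LP1, beside the shares of all genes given above. The median log2 ratio of LP4 over UI over the 40 genes was 0.21, with -0.09 over all genes.

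The other BH3-only genes stood lower or did not reach the limit. *Bbc3*, which encodes PUMA, was at 6.89, 6.04 and 1.99 CPM in UI, LP1 and LP4, a log2 ratio of LP4 over UI of -1.79. *Pmaip1*, which encodes NOXA, the antagonist of MCL1, was at 8.60, 10.1 and 5.42 CPM (-0.67). *Bad* was at 66.3, 59.7 and 55.0 CPM (-0.27), short of 1.5-fold. *Bmf*, *Bik* and *Hrk* had at most 1.14 CPM in any library and are too low to read. *Foxo3*, a transcription factor known to act on BH3-only genes, was at 28.2, 24.8 and 7.67 CPM, a log2 ratio of -1.88, and *Ddit3*, another, at 31.8, 21.9 and 12.7 CPM (-1.33). *Mdm2*, the antagonist of p53, was at 314, 369 and 839 CPM (1.42). In the same group of the list, *Foxo1* was at 20.7, 20.7 and 17.9 CPM (-0.21) and *Trp53*, which encodes p53, at 31.4, 34.7 and 42.6 CPM (0.44). Both were short of 1.5-fold.

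Downstream of the outer membrane, *Apaf1*, the scaffold of the apoptosome, was at 75.6, 82.7 and 121 CPM, a log2 ratio of LP4 over UI of 0.68. *Casp9*, the caspase that the apoptosome activates, was at 13.3, 13.0 and 7.33 CPM (-0.86). *Casp6*, a caspase that acts after it, was at 7.57, 8.40 and 11.7 CPM (0.63). *Htra2*, a mitochondrial protease, was the pathway gene called at 1 hour. It was at 21.9, 42.6 and 25.6 CPM, and LP1 over UI gave 0.96 on the log2 scale. *Casp8*, which cleaves BID, was at 46.7, 50.2 and 96.0 CPM (1.04), so that *Bid* and *Casp8* both stood higher in LP4.

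Of the caspase inhibitors, *Birc2* was at 7.03, 7.76 and 13.4 CPM in UI, LP1 and LP4 (0.93) and *Xiap* at 57.4, 62.9 and 88.2 CPM (0.62). *Cflar*, the inhibitor of caspase-8 activation, was at 513, 550 and 604 CPM (0.23), short of 1.5-fold. *Birc3*, at 161, 133 and 183 CPM (0.19), and *Birc6*, at 174, 162 and 210 CPM (0.27), were also short of it. Both were lower in LP1 than in UI, with log2 ratios of -0.27 and -0.11. *Tmbim6*, an inhibitor of BAX-dependent death in the endoplasmic reticulum, was at 107, 155 and 273 CPM (1.35). Of the 5 genes listed for the turnover of MCL1, *Huwe1*, *Usp9x*, *Fbxw7*, *Gsk3a* and *Gsk3b*, none was called in any of the 3 comparisons, and the largest log2 ratio of LP4 over UI was 0.43 for *Usp9x*.

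**Figure D5:**
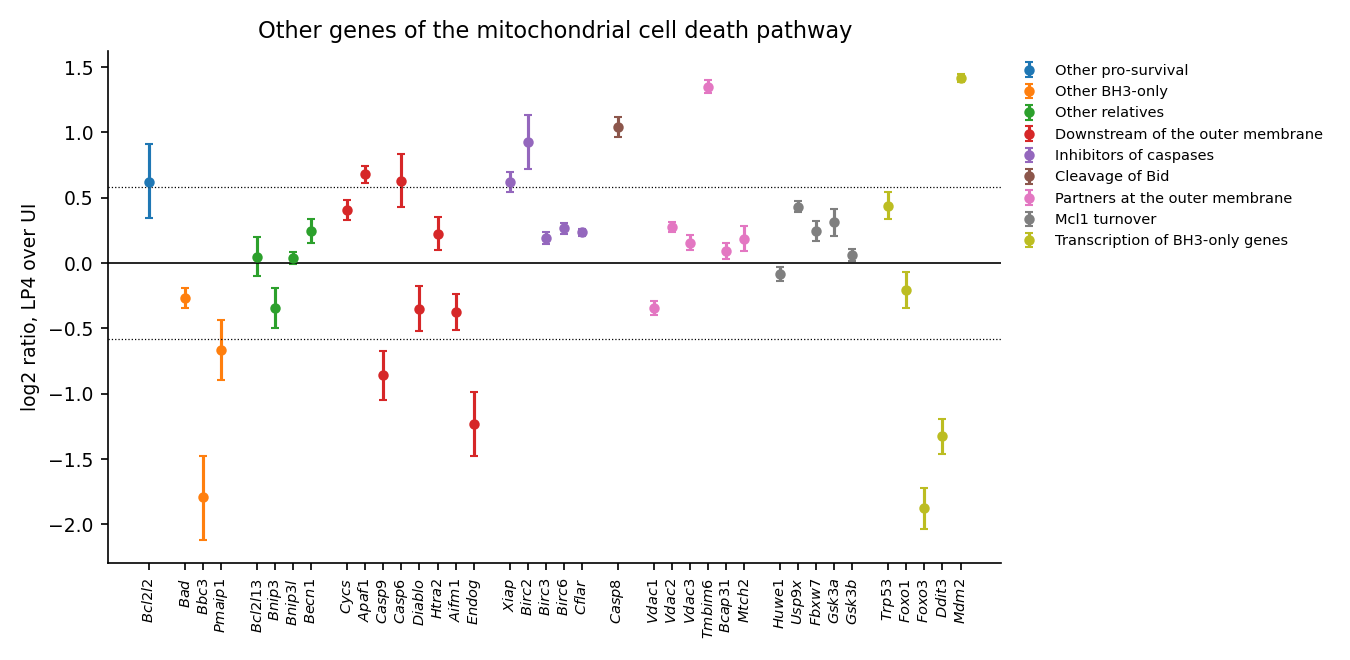
Log2 ratio of LP4 over UI for 38 of the 40 other pathway genes that reached 5 CPM in UI or LP4, grouped by role, 1 point per gene with exact 95% counting intervals. The dotted lines mark 1.5-fold, 8 of the plotted genes lie above them and 6 below, with *Foxo3* at -1.88 the lowest and *Mdm2* at 1.42 the highest.

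Over the 21 sums of clusters A to G in the 3 libraries, the genes whose CPM ranked most like *Bcl2a1b* among 3792 genes were *Ap3s1* (Spearman's rho 0.95), *Cstb* (0.93), *H2-T23* (0.93), *Iscu* (0.92) and *Hmgcs1* (0.91). Those most like *Bcl2l11* were *Slc20a1* (0.94), *Nfkbiz* (0.94), *Cd83* (0.94), *Ccnl1* (0.93) and *St3gal1* (0.93). *Cd83* was at 416, 406 and 142 CPM in UI, LP1 and LP4 and *Cstb* at 366, 635 and 1037 CPM. The 21 sums share libraries and depth, so these values are a description.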

How the data were processed

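Single-cell RNA of BMDMs was sequenced by the 10x 3′ method, 1 library each for UI, LP1 and LP4. Per the file headers and labels, Cell Ranger 7.1.0 and mm10 gave the deposited values, which are whole-number UMI counts per gene and barcode that the authors left without normalization. Whether intronic reads were counted is not given in the sources used here. The method counts 1 end of a transcript, so levels were not divided by length.

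The study's limits were applied: a barcode was kept above 500 UMIs and 500 genes and below 5% mitochondrial UMIs, which left 99.2%, 98.9% and 92.7% of 6123, 5119 and 5039 barcodes. That is more cells in all than the study states for these limits. CPM were computed from UMIs summed by library. Intervals are exact: Poisson for a level, conditional binomial for a ratio and binomial (Clopper-Pearson) for a share. The interval of a ratio of sums is a normal approximation on the log scale. All 10 members passed 5 CPM in the higher library, *Bcl2* through UI and LP1 only. A count of 0 was read against a floor of 3 counts. The members and lists were chosen with earlier results of these data known. All members are named, and other pathway genes where past 1.5-fold with 10 CPM or more in the higher library, plus every other BH3-only gene. Some other genes short of 1.5-fold are named beside them. The values of 2 pathway genes are counted in the list but not reported here.

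Clusters rest on 2000 variable genes of 5209 that had at least 200 UMIs and less than 1.5-fold between libraries, without the members and the pathway list. Values were scaled to 10000 per cell, logged, centred within library and clipped at 10 SD, and Leiden clusters (resolution 0.5) were found with 20 neighbours on 30 principal components. A name needed 3 markers among the 10 leading genes, or 3 macrophage markers each present in 50% of the cells or more. No doublets were removed from the reported values. Random steps used a seed of 20. Promoters are RefSeq (GRCm38.p6), and gene positions and transcripts are GENCODE vM21.

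TMM factors alone came from edgeR 4.0.16 (R 4.3.3). All else was done in Python 3.11.15 with scanpy 1.11.5, igraph 0.11.9, leidenalg 0.10.2, scikit-learn 1.9.0, matplotlib 3.10.9, pandas 2.3.3, scipy 1.17.1 and numpy 2.4.6. The ratio step was tested on simulated data. The alternatives tried are in the closing section.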

Additional observations from a re-analysis of the deposited data

Results flagged for a closer look

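*Bcl2l1* stood slightly higher after 1 hour, with a log2 ratio of LP1 over UI of 0.11, and lower after 4 hours, with -0.87 for LP4 over UI, and neither counting interval includes 0. *Bax* went the same way, with 0.14 after 1 hour and -0.42 after 4 hours. *Mcl1* differed in sign between clusters of cells, with a log2 ratio of LP4 over UI of 0.33 in the macrophage-like cluster D and -0.10 in the cycling-like cluster F. Each of these differences rests on 1 library per condition and was not tested, and both ratios of a pair use the same UI library. Groups of 1 library allow no check for samples that stand apart.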

How the results depend on the processing

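Alternatives were no mitochondrial limit or one of 10%, TMM or median-of-ratios scaling, totals without mitochondrial and ribosomal protein genes, means over cells of shares, macrophage-like clusters alone, removal of the 5% highest doublet scores of each library, a limit of 2-fold, thinning to 1000 or 4000 UMIs or none, and resolutions of 0.3 and 0.8. No member past 1.5-fold changed direction under them, and 190 of 240 recomputed log2 ratios stayed within the counting interval of the reported value. Small ratios changed sign with median-of-ratios scaling: *Bcl2* for LP1 over UI (0.05), *Bak1* for LP4 over UI (0.03) and over LP1 (0.11), and *Mcl1* for LP4 over LP1 (0.06). 3 of these also did with TMM (*Bcl2* 0.02, *Bak1* over LP1 0.076, *Mcl1* 0.02), *Bcl2* with macrophage-like clusters alone and *Bak1* over LP1 with means over cells of shares. With means over cells of shares, 4 members in place of 3 were lower in LP4 than in LP1, *Bax* being added. With the limit at 2-fold, 0 members were higher in LP1 than in UI. The log2 change of the pro-survival to pro-death ratio became 0.078, 0.60 and 0.52 without the *Bcl2a1* genes and 0.41, 1.65 and 1.24 without *Mcl1*, for LP1 over UI, LP4 over UI and LP4 over LP1, by construction of the sums. All 90 thinned shares moved with the depth of thinning. With at least 20 UMIs over the pair in place of 5 CPM, the share of genes called lower in LP1 was 9.07%. No paired analysis was possible because each condition is 1 library. The intervals cover counting error only, so a difference between cultures, captures or wells of the size seen here cannot be told apart from the treatment.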
